A study of Mus musculus with 8 samples.

Results

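Nephron progenitors labelled Smo Het were compared with nephron progenitors labelled SmoM2 Transgenic, that is, cells from embryos with a reduced Smo dose on the label with cells in which an active form of Smo is switched on. The comparison used 4 of the 8 libraries of the series, 2 in each group, and all genes counted well enough to be tested, which were 13459 of 24539. All cells came from E18.5 mouse kidneys and were isolated by fluorescence-activated sorting (FACS) on Six2GFPcre, a GFP and Cre fusion made under the control of Six2, the gene that marks self-renewing nephron progenitors. Every group carried Six2GFPcre. The Het-labelled embryos were Smo c/+ ; Six2GFPcre, with 1 conditional and 1 wild-type allele of Smo. The SmoM2-labelled embryos were Rosa26 SmoM2/+ ; Smo +/+ ; Six2GFPcre, with 2 wild-type alleles and an allele from which Cre turns on SmoM2. Libraries labelled WT (Smo +/+ ; Six2GFPcre) and KO (Smo c/c ; Six2GFPcre), again 2 each, served to place the levels. The labels do not say how many embryos went into a library or that replicates came from separate litters, so p-values measure the spread between these samples only, which may be technical. Cre acts where Six2GFPcre is made, so the label describes the alleles of the embryo and not the recombined share of the sorted cells.

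Smo is the membrane protein that relays Hedgehog signals. Without ligand it is held inactive by the receptor Ptch1. Once active, it acts through the primary cilium and Sufu so that the Gli factors switch from repressing to activating their targets. Among those targets are Ptch1, Hhip and Gli1 themselves, which feed back on the pathway. In the developing kidney, Shh from the ureteric and collecting duct epithelium is best known for acting on the mesenchyme around the ureter and medulla, where it sustains smooth muscle and stromal programmes. SmoM2 is a mutant Smo that signals without ligand.

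Smo was measured first, since it checks the labels. It lay at 14.4 and 23.9 CPM (read counts per unit of library size, scaled for library composition) in Het-labelled replicates 1 and 2 and at 605 and 629 CPM in SmoM2-labelled replicates 1 and 2. The WT-labelled libraries held 363 and 375 CPM and the KO-labelled libraries 13.1 and 11.1 CPM. The Het-labelled values were thus close to the KO-labelled ones and far below both groups with wild-type alleles, which goes against a label of 1 wild-type allele. For this reason libraries are called by their labels, and a direction between groups is a direction between libraries so labelled. The log2 change from Het-labelled to SmoM2-labelled was 5.02, SE 0.20, adjusted p 3.37e-07, a 32.5-fold difference. The step from Het- to WT-labelled made up 4.28 of it (adjusted p 1.55e-06). The step from WT- to SmoM2-labelled was 0.74 and did not pass the threshold (adjusted p 0.132). The table has a single Smo entry (GRCm38 chromosome 6, 29735503 to 29761365) and does not separate SmoM2 transcripts from those of the endogenous gene.

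Of the 13459 tested genes, 4529 passed an adjusted p of 0.05, which is 33.7%. Of these, 2253 were higher in the SmoM2-labelled libraries (16.7% of those tested) and 2276 lower (16.9%). A fold of at least 2 was reached by 753 of the genes that rose and 837 of those that fell. Listed counts were 7577590 and 5929770 in the Het-labelled and 9929956 and 9037109 in the SmoM2-labelled libraries. Across genes, log2 CPM correlated with a Pearson's r of 0.984 between the Het-labelled replicates, 0.983 between the SmoM2-labelled replicates and 0.933 to 0.940 between the groups. Both Het-labelled libraries were female by Xist and Y-linked counts, whereas SmoM2-labelled replicate 1 was male and replicate 2 female. WT-labelled replicate 1 was male and replicate 2 female, and both KO-labelled libraries were male. The Het- and KO-labelled libraries thus differed in sex as well as in label. Without SmoM2-labelled replicate 1, where all libraries compared are female, 3236 genes were called. The count fell to 2409 without Het-labelled replicate 2, 2632 without Het-labelled replicate 1 and 2724 without SmoM2-labelled replicate 2. The labels give no batch or date, so a preparation difference that followed the groups cannot be told apart from genotype.

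2 further properties moved with the groups. Genes of low GC content were more often higher in the SmoM2-labelled libraries and genes of high GC content more often lower. When tested genes were cut into 5 bins by GC content, 750 of 2634 in the lowest bin were higher and 117 lower, with a median log2 change of 0.29. In the highest bin, 205 were higher and 915 lower, with a median of -0.33. Removing each library's trend over GC content and length left 4008 calls, of which 3207 were also called without that step, all in the same direction. Summed over 23 immediate early genes, which respond within minutes to stimuli such as tissue dissociation, the level was 11210 and 11090 CPM in the Het-labelled and 4812 and 6918 CPM in the SmoM2-labelled libraries. With the mean log2 level of these genes as a covariate, 1515 genes were called, of which 1398 were called without it. The part of GC content and of dissociation in the results was not tested further. Below, "with the stress covariate" means that fit. Since the covariate itself differs between the groups, a call can be lost there through a wider error without a smaller change. The log2 change of H2-DMb2 was -2.98 without and with it, and that of Six2 -0.62 and -0.83, yet both calls were lost. That of Foxo1, also lost, went from 1.20 to 0.17. Most genes named below that lost their call had a smaller change in that fit, such as Gm7534 (-3.81 without and -1.21 with the covariate). The rest had an equal or larger one. A lost call alone thus does not tell a smaller change from a wider error.

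**Figure D1:**
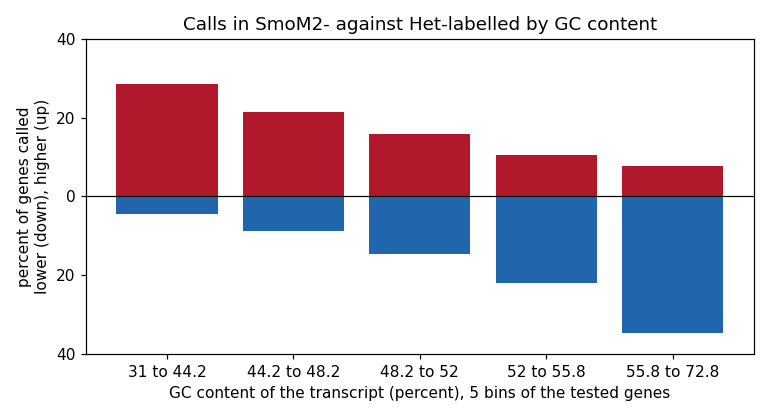
Percent of tested genes called higher (up, red) or lower (down, blue) in SmoM2-labelled against Het-labelled libraries (vertical axis) in 5 bins of the genes by GC content of the longest transcript in percent (horizontal axis). The called-higher count falls from 750 to 205 genes and the called-lower count climbs from 117 to 915 genes from the lowest to the highest bin.

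The Hedgehog receptors and co-receptors split by role. Among those that rose in the SmoM2-labelled libraries were Smo and the inhibitory feedback proteins Ptch1 and Hhip, and the co-receptors Gas1, Cdon, Boc and Lrp2 fell. All 8 members tested passed the threshold, 4 in each direction, beside 33.7% of all tested genes. The libraries of the 2 groups did not overlap for any of them, beside 70.9% of all tested genes. In bulk RNA a lower level can be fewer cells of a type or less RNA per cell, and these cannot be told apart for any gene described here.

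Hhip, a membrane protein that binds and sequesters Hedgehog ligands, was counted 3 and 2 times in the Het-labelled and 610 and 673 times in the SmoM2-labelled libraries. The WT-labelled libraries had 34 and 50 counts and the KO-labelled libraries 5 and 10. Both SmoM2-labelled libraries were thus far above every other library. The ratio of the summed counts, set to library size, was 186 (95% exact counting interval 79.5 to 574, which covers counting error only), and the adjusted p was 1.72e-06. Ptch1 lay at 75.5 and 76.9 CPM and 377 and 355 CPM, with the WT-labelled libraries in between at 155 and 168 CPM. Its log2 change was 2.26, SE 0.12, adjusted p 1.72e-06. Ptch1 was thus well expressed in the Het-labelled libraries already, and rose by a smaller fold of 4.8 than Hhip.

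Gas1, a membrane-anchored co-receptor that helps Hedgehog ligand bind Ptch1, went the other way. It lay at 2594 and 2254 CPM in the Het-labelled, 1167 and 1040 CPM in the WT-labelled and 990 and 1043 CPM in the SmoM2-labelled libraries, with no overlap between the Het- and SmoM2-labelled ones. Its log2 change was -1.25, SE 0.13, adjusted p 7.14e-05. Cdon, a ligand-binding co-receptor of the immunoglobulin family, fell from 78.2 and 95.97 CPM to 37.1 and 28.2 CPM (log2 change -1.41, SE 0.18, adjusted p 0.000262). Lrp2, an endocytic receptor, fell from 42.8 and 36.9 CPM to 10.8 and 9.48 CPM, 3.92-fold. Boc, the relative of Cdon, changed least, from 185 and 192 to 139.5 and 114 CPM (log2 change -0.57, SE 0.16, adjusted p 0.0157). The call of Boc was lost without Het-labelled replicate 1 (adjusted p 0.0757), without Het-labelled replicate 2 (0.0986), without SmoM2-labelled replicate 2 (0.159), with GC and length trends removed (0.105) and with the stress covariate (0.214). The other 7 members kept their calls in those fits. Gas1 and Cdon did not separate the WT- from the SmoM2-labelled libraries (adjusted p 0.926 and 0.905), whereas Ptch1 and Hhip did (0.00219 and 8.51e-05).

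**Figure D2:**
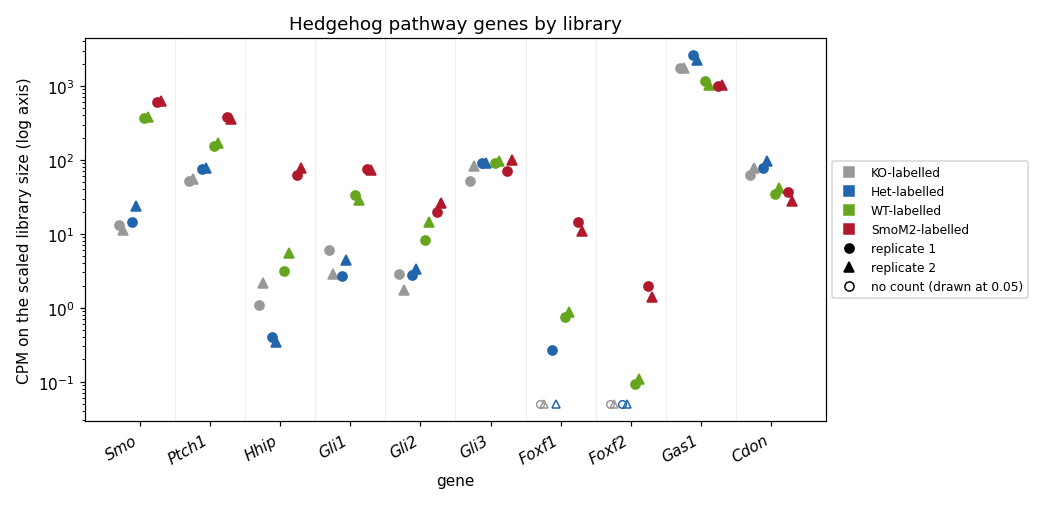
Level in CPM on a log axis of 10 Hedgehog pathway genes (horizontal axis) in each of the 8 libraries. Points are single libraries, coloured by label, with circles for replicate 1 and triangles for replicate 2, and open symbols stand for libraries with no count. Smo, Ptch1, Hhip, Gli1, Gli2 and Foxf1 are highest in the SmoM2-labelled libraries, Gli3 is level at 69.7 to 100.1 CPM across the Het- and SmoM2-labelled libraries, and Gas1 and Cdon are highest in the Het-labelled ones.

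Between Smo and the nucleus, 14 genes were tested, of which 3 rose and 2 fell. That is 35.7% called, near the 33.7% of all tested genes, with a median log2 change of 0.12. Gli1, the activator Gli that is itself a target, lay at 2.67 and 4.42 CPM in the Het-labelled and 75.9 and 73.5 CPM in the SmoM2-labelled libraries, with the WT-labelled ones at 33.6 and 28.3 CPM. It was 21.4-fold higher with SmoM2 (log2 change 4.42, SE 0.27, adjusted p 4.97e-06). Gli2, the main activator downstream of Smo, rose from 2.81 and 3.397 CPM to 20.04 and 25.8 CPM (log2 change 2.89, SE 0.34, adjusted p 0.000152). Gli3, which acts mostly as a repressor, lay at 91.7 and 92.1 and 69.7 and 100.1 CPM, ranges that overlap (log2 change -0.12, SE 0.20, adjusted p 0.697). The ranges of Sufu, which holds Gli proteins in the cytoplasm, met as well, at 99.99 and 102 against 112 and 100.1 CPM (adjusted p 0.672). Kif7, the ciliary kinesin of the pathway, lay at 75.7 and 74.6 against 89.6 and 80.2 CPM (adjusted p 0.433), and was called higher with GC and length trends removed (log2 change 0.54, adjusted p 0.0145). Stk36, a kinase related to fly Fused, fell from 39.8 and 40.6 to 19.2 and 11.9 CPM (log2 change -1.36, SE 0.23, adjusted p 0.00124).

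Csnk1a1, a casein kinase, and Prkaca, the catalytic subunit of protein kinase A, phosphorylate Gli proteins. Csnk1a1 had a log2 change of 0.43 (adjusted p 0.0232) and Prkaca of -0.47 (adjusted p 0.00947). Both calls were lost without either Het-labelled library (adjusted p 0.0525 and 0.149 for Csnk1a1, 0.0973 and 0.0661 for Prkaca). They were also lost without SmoM2-labelled replicate 2 for Csnk1a1 (0.104) and without SmoM2-labelled replicate 1 for Prkaca (0.108), with GC and length trends removed (0.112 and 0.125) and with the stress covariate (0.05499 and 0.354). None of the 3 ligand genes was counted well enough to be tested. Shh had no count in any of the 4 libraries, Dhh had 1 and 0 counts in the SmoM2-labelled and none in the Het-labelled libraries, and Ihh had 13 and 4 counts in the Het-labelled and 3 and 3 in the SmoM2-labelled libraries.

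Of 12 genes listed as Hedgehog targets, 7 rose and 1 fell (66.7% called beside 33.7% of all tested genes), with a median log2 change of 1.82 against 0.01 over all tested genes. Ptch1, Hhip and Gli1 are among the members that this list shares with the lists above. Foxf1, a forkhead factor of Hedgehog-responding mesenchyme (GRCm38 chromosome 8, 121084386 to 121088144), had 2 and 0 counts in the Het-labelled and 142 and 96 counts in the SmoM2-labelled libraries. The WT-labelled libraries had 8 and 8 counts and the KO-labelled libraries none. Foxf1 was thus found almost only in the SmoM2-labelled libraries, with a ratio of 86.3 to the Het-labelled ones (95% exact counting interval 23.6 to 717, adjusted p 8.98e-05). Foxf2, its relative, had no count in the Het-labelled libraries and 19 and 12 in the SmoM2-labelled ones. Against a floor of 3 counts over the Het-labelled group it was at least 7.49-fold higher (adjusted p 0.00467), a call lost with the stress covariate (0.102).

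4 further targets are growth and survival genes. Bcl2, which restrains apoptosis, fell from 267 and 285 to 155 and 142 CPM (log2 change -0.90, SE 0.12, adjusted p 0.000348). Ccnd1, a G1 cyclin, lay at 29.4 and 72.5 CPM and 101 and 159.7 CPM. Its call (adjusted p 0.0397) was lost without Het-labelled replicate 1 (0.215), without SmoM2-labelled replicate 2 (0.179) and with the stress covariate (0.0932). The KO-labelled libraries held more Ccnd1 than any of these, at 361 and 452 CPM. Mycn (43.4 and 94.1 against 69.8 and 64.1 CPM) and the ligand gene Bmp4 (25.4 and 36.2 against 33.3 and 25.3 CPM) overlapped between the groups and were not called (adjusted p 0.956 and 0.867). Foxl1, a further forkhead target, overlapped too, at 4.28 and 7.98 against 7.05 and 7.28 CPM (adjusted p 0.607). Per length, in the authors' RPKM values, Smo lay at 122 and 126, Ptch1 at 39.3 and 36.8, Gli1 at 16.6 and 15.99 and Hhip at 5.497 and 6.83 in the SmoM2-labelled libraries.

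Of 14 genes listed for ureteral mesenchyme and smooth muscle, 11 were tested, 4 rose and none fell, which is 36.4% called beside 33.7% of all tested genes. The median log2 change was -0.02, and its sign depended on the setting, at -0.26 without Het-labelled replicate 1, 0.37 without Het-labelled replicate 2 and 0.34 with the stress covariate. Without Het-labelled replicate 1, 1 member fell, Acta2 (adjusted p 0.0481), and with the stress covariate 2 members were higher. The 4 were transcription factors, namely Foxf1, Foxf2, Tshz3 and Sox9. Tshz3, a zinc finger factor needed for ureteral smooth muscle, had 4 and 3 counts in the Het-labelled and 44 and 55 in the SmoM2-labelled libraries. Tshz3 was 10.1-fold higher in the latter (log2 change 3.33, SE 0.51, adjusted p 0.000765) and also 7.099-fold higher than in the WT-labelled libraries (adjusted p 0.0423). Sox9, a factor of ureteral mesenchyme and of many epithelia, lay at 34.5 and 29.9 and 42.5 and 57.7 CPM. Its call (adjusted p 0.0284) was lost without Het-labelled replicate 1 (0.0593), without Het-labelled replicate 2 (0.151), without SmoM2-labelled replicate 2 (0.2) and with the stress covariate (0.196). The contractile genes Acta2 (4.81 and 10.9 against 4.703 and 4.04 CPM) and Tagln (6.42 and 9.68 against 6.03 and 5.78 CPM) were not called in the main fit (adjusted p 0.155 and 0.432). Acta2 was called lower with every counted gene tested. Myh11, smooth muscle myosin, stayed at or below 1.36 CPM in all 4 libraries.

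Stromal transcription factors moved in opposite directions. Foxd1, which marks the stromal lineage beside the nephron progenitors, lay at 22.5 and 14.6 CPM in the Het-labelled, 197 and 171 CPM in the WT-labelled and 385 and 301 CPM in the SmoM2-labelled libraries. It was 18.3-fold higher with SmoM2 (log2 change 4.19, SE 0.32, adjusted p 1.42e-05). Meis1, a homeobox factor of the stroma, lay at 114 and 99.9 CPM in the Het-labelled and 10.4 and 11.6 CPM in the SmoM2-labelled libraries, 9.75-fold lower in the latter. Tcf21, a helix-loop-helix factor of stroma and podocytes, fell from 114 and 125 to 35.1 and 27.97 CPM. Lum, a matrix proteoglycan, had 3 and 4 counts in the Het-labelled and 50 and 26 in the SmoM2-labelled libraries. Its call (adjusted p 0.007198) was lost without Het-labelled replicate 1 (0.0616), without SmoM2-labelled replicate 1 (0.0518) and with the stress covariate (0.481). These were the 2 that rose and the 2 that fell among 13 stromal markers tested, 30.8% called and so no more often than the 33.7% of all tested genes. The whole list of 14 summed to 403 and 588 CPM in the Het-labelled and 753 and 616 CPM in the SmoM2-labelled libraries, with 1 of the 14 at 3 counts or fewer in all 4 libraries. Their part in the Hedgehog and forkhead results was not tested.

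Markers of the other cell types that a sort could carry over were low. The 13 collecting duct and ureteric bud genes summed to 26.6 and 29.9 CPM in the Het-labelled and 63.7 and 77.1 CPM in those labelled SmoM2. The defining markers Tfap2b and Wnt9b had at most 1 count in each of the 4 libraries, and Aqp2 and Calb1 at most 2. Of 6 tested, 4 were higher (16.7% over all tested genes), namely Wnt11, Cdh16, Krt8 and Krt18. Krt8 and Krt18, keratins of simple epithelia, lay at 0.668 and 1.02 against 2.04 and 3.58 CPM and 3.48 and 2.89 against 5.52 and 7.05 CPM, and Cdh16, a cadherin of kidney epithelium, at 0.535 and 0 against 2.04 and 1.97 CPM. The calls of these last 3 were lost without Het-labelled replicate 2 (adjusted p 0.0854, 0.171 and 0.134) and without SmoM2-labelled replicate 2 (0.203, 0.185 and 0.0699). Krt8 and Krt18 were also lost without Het-labelled replicate 1 (0.1804 and 0.0929), Krt18 and Cdh16 without SmoM2-labelled replicate 1 (0.0547 and 0.0745), and all 3 with the stress covariate. The 11 endothelial genes summed to 47.3 and 46.0 CPM against 25.2 and 33.4 CPM, and the 8 erythroid genes to 26.6 and 20.4 CPM against 7.97 and 3.005 CPM. Podocyte and tubule genes summed to 65.0 and 51.6 CPM against 42.2 and 38.1 CPM. Of 5 tested, 1 rose and 1 fell (40% called beside 33.7% of all tested genes), with a median log2 change of 0.81. The member that fell was Lrp2 (log2 change -1.97), given above as a Hedgehog co-receptor and also listed here as a tubule marker. The fall of Lrp2 in CPM was larger than that of the whole sum. The lower sum thus rests on Lrp2, and the other members together were higher in the SmoM2-labelled libraries.

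Known nephron progenitor genes were lower or not called in the SmoM2-labelled against the Het-labelled libraries. Of 24 listed, 23 were tested, none rose and 13 fell, beside 16.9% of all tested genes. The median log2 change of the list was -0.62. Both groups held Six2 at a high level, 2105 and 1770 CPM in the Het-labelled and 1264 and 1264 CPM in the SmoM2-labelled libraries. Six2 is the gene that the sort rests on. With GC and length trends removed, 10 members were lower and the median was -0.43. Without SmoM2-labelled replicate 1, 7 were lower and 1 was higher. Without each of the other 3 libraries 8 were lower, and 4 were lower with the stress covariate. Summed over the 24 listed genes, WT-labelled replicates 1 and 2 held 7989 and 7135 CPM. These sums were nearer to the SmoM2-labelled ones (6900 and 7035 CPM) than to the Het-labelled ones (11610 and 11030 CPM). KO-labelled sums lay between those of WT and Het, at 9459 and 8808 CPM.

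**Figure D3:**
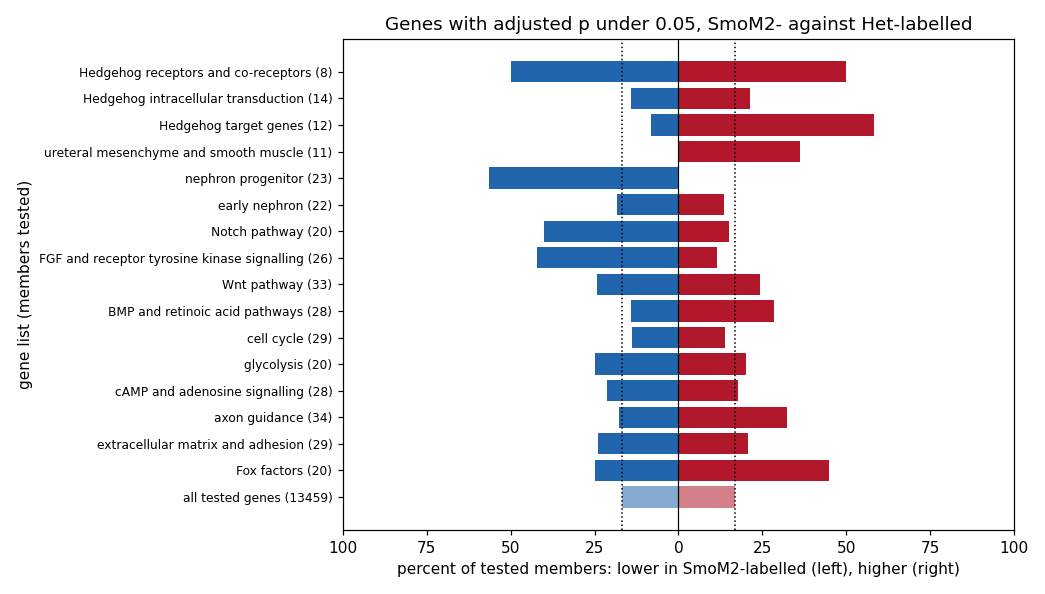
Percent of the tested members of each list that were lower (left, blue) or higher (right, red) in SmoM2-labelled against Het-labelled libraries at an adjusted p under 0.05, with the number tested in brackets. Dotted lines mark the share over all tested genes, 16.9% lower and 16.7% higher. Nephron progenitor genes lie only on the left, with 13 of 23 lower, and ureteral mesenchyme genes only on the right, with 4 of 11 higher.

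Cited1, a transcriptional cofactor of the least differentiated progenitors, lay at 506 and 372 CPM in the Het-labelled and 107 and 85.4 CPM in the SmoM2-labelled libraries. It was 4.57-fold lower (log2 change -2.19, SE 0.22, adjusted p 7.08e-05), with the WT-labelled libraries at 173 and 123 CPM. Meox2, a homeobox factor, fell from 33.8 and 26.3 to 5.73 and 5.201 CPM, 5.497-fold.

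More abundant members fell by smaller folds. Uncx, a homeobox factor, fell from 1229 and 1273 to 537 and 593 CPM (log2 change -1.15, SE 0.15, adjusted p 0.0003202). Spock2, a matrix proteoglycan, fell from 2442 and 2247 to 814 and 920.5 CPM, 2.704-fold. Hoxa11, needed with its paralogs for kidney formation, fell from 249 and 245 to 106 and 132 CPM, 2.08-fold. Itga8, the integrin subunit through which progenitors contact nephronectin, fell from 444 and 418 to 251 and 231 CPM, 1.79-fold. Spock2 and Itga8 lost their calls with the stress covariate (adjusted p 0.0717 and 0.0815). Six2 itself had a log2 change of -0.62 (SE 0.15, adjusted p 0.00851). That call was lost with GC and length trends removed (log2 change -0.14, adjusted p 0.428), without Het-labelled replicate 1 (0.117), without SmoM2-labelled replicate 1 (0.0508), without SmoM2-labelled replicate 2 (0.0579) and with the stress covariate (0.0839). Eya1, the Six2 partner, lay at 486 and 413 against 497 and 444 CPM and was not called (adjusted p 0.763). Osr1, an early factor of the lineage, lay at 178 and 119.6 against 82.1 and 61.4 CPM (adjusted p 0.0846). It was called lower in 3 of 15 alternatives. These were the fit of only the Het- and SmoM2-labelled libraries, that with every counted gene tested and that with a replicate block. Gdnf, the ligand by which progenitors call the ureteric bud to branch, lay at 148 and 192 against 188 and 271 CPM (adjusted p 0.114). With every counted gene tested, Gdnf was called higher. Without SmoM2-labelled replicate 1 Gdnf was called higher (0.0301).

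Of 22 tested early nephron genes, which are switched on when progenitors commit, 3 rose and 4 fell, and the median was 0.16. The share called, 31.8%, was near the 33.7% of all tested genes. Without Het-labelled replicate 1, none rose and 5 fell, and without Het-labelled replicate 2, 4 rose and 2 fell. Fgf8, a growth factor of the pretubular aggregate, had the widest difference among those that fell. It lay at 64.3 and 68.96 CPM in the Het-labelled and 4.09 and 6.12 CPM in the SmoM2-labelled libraries, 13.1-fold lower, with the KO-labelled libraries at 116 and 89.9 CPM. Wnt4, which drives the change from mesenchyme to epithelium, lay at 85.7 and 198 CPM against 103 and 199.8 CPM and overlapped (adjusted p 0.858). Lhx1, a factor of the renal vesicle, lay at 4.68 and 9.34 against 4.499 and 6.36 CPM (adjusted p 0.621), while both KO-labelled libraries held more, at 62.2 and 122 CPM. Pax8, a paired-box factor of the forming nephron, fell from 269.9 and 298 to 187 and 184 CPM, a call lost without Het-labelled replicate 2 (adjusted p 0.0526) and with the stress covariate (0.215).

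Of 20 tested Notch pathway genes, 3 rose and 8 fell (55% called beside 33.7% of all tested genes), with a median of -0.50. Notch signalling passes between neighbouring cells, with Delta and Jagged ligands on one cell and Notch receptors on the next, and Rbpj with Hes and Hey factors carrying the response. The effectors moved apart. Heyl, a Hey-family repressor, lay at 17.6 and 11.2 CPM in the Het-labelled, 81.3 and 84.8 CPM in the WT-labelled and 109.6 and 93.8 CPM in the SmoM2-labelled libraries, 6.96-fold higher in the last (log2 change 2.80, SE 0.19, adjusted p 5.65e-06). Its relative Hey1 lay at 41.6 and 72.5 CPM and 23.4 and 27.4 CPM, 2.23-fold lower, a call lost without Het-labelled replicate 2 (adjusted p 0.05795) and with the stress covariate (0.225). Rbpj, the DNA-binding partner of cleaved Notch, rose from 36.2 and 32.1 to 68 and 70.96 CPM (log2 change 1.02, SE 0.15, adjusted p 0.000604). Nrarp, a feedback inhibitor, fell from 13.4 and 10.2 to 4.19 and 4.39 CPM, a call lost with the stress covariate (0.214). Jag1, a ligand, lay at 30.2 and 71.8 against 25.6 and 27.4 CPM and was not called in the main fit (adjusted p 0.0686). It was called lower in the fit of only the Het- and SmoM2-labelled libraries and in that with every counted gene tested. Its log2 change was -1.40 without Het-labelled replicate 1 and -0.16 without Het-labelled replicate 2. The count of lower genes was 4 with GC and length trends removed, 2 without Het-labelled replicate 2, 4 without SmoM2-labelled replicate 1, 5 without SmoM2-labelled replicate 2 and 1 with the stress covariate.

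Receptor tyrosine kinase genes were among the 12 leading genes that fell. Of 26 tested, 3 rose and 11 fell (53.8% called beside 33.7% of all tested genes), with a median of -0.35, and 8 were lower with GC and length trends removed. Among the ligands, Fgf9, which maintains progenitors together with Fgf20, lay at 6.55 and 11.04 CPM in the Het-labelled and 0.409 and 0.693 CPM in the SmoM2-labelled libraries, 15.6-fold lower (log2 change -3.96, SE 0.46, adjusted p 0.000149). Fgf8 fell too, as given above. Among the receptors, Fgfr1, the main FGF receptor of these cells, fell from 2151 and 2010 to 1390 and 1217 CPM, 1.596-fold, and Fgfr4 from 14.6 and 14.6 to 6.85 and 3.47 CPM. Spry4, a feedback inhibitor of the pathway, fell from 87.6 and 80.8 to 34.9 and 46.2 CPM. Fgfr1 and Spry4 lost their calls with the stress covariate (adjusted p 0.0672 and 0.106).

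The GDNF co-receptors moved in opposite directions. Gfra2, which binds neurturin, lay at 75.1 and 90.5 CPM in the Het-labelled and 1.74 and 2.08 CPM in the SmoM2-labelled libraries. It was 43.1-fold lower (log2 change -5.43, SE 0.36, adjusted p 5.65e-06), and the KO-labelled libraries lay with the Het-labelled ones at 48.3 and 54.2 CPM. Gfra1, which binds GDNF, rose from 282 and 215 to 626 and 580.5 CPM, 2.42-fold (log2 change 1.28, SE 0.14, adjusted p 0.000133). Neither co-receptor separated the SmoM2- from the WT-labelled libraries (adjusted p 0.655 and 0.933). For the whole list, 6 to 8 members were lower without single libraries, with the fewest without Het-labelled replicate 2 and without SmoM2-labelled replicate 1, and 4 were lower with the stress covariate.

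Of 33 tested Wnt genes, 8 rose and 8 fell (48.5% called beside 33.7% of all tested genes), with a median of -0.03. The secreted factors accounted for the widest differences. Wnt11, a ligand best known from the ureteric bud tip, lay at 1.203 and 0.679 CPM in the Het-labelled, 9.79 and 7.51 CPM in the WT-labelled and 24.1 and 34.2 CPM in the SmoM2-labelled libraries. It was 29.6-fold higher than in the Het-labelled (log2 change 4.89, SE 0.42, adjusted p 2.20e-05) and 3.35-fold higher than in the WT-labelled libraries (adjusted p 0.04296). Rspo3, an R-spondin that amplifies Wnt signals, rose from 17.1 and 8.32 to 73.8 and 65.2 CPM, 5.37-fold, and Dkk3, a Dickkopf-family protein, from 11.4 and 10.9 to 32.5 and 43.5 CPM. The R-spondin receptor Lgr4 rose as well, from 96.1 and 95.3 to 188 and 181 CPM (log2 change 0.95, SE 0.12, adjusted p 0.000233). Among those that fell were the receptor Fzd1, from 156 and 156 to 63.2 and 71.4 CPM, the intracellular inhibitor Nkd1, from 123 and 141 to 51.2 and 55.4 CPM, and the ligand Wnt5b, from 35.96 and 46.2 to 20.9 and 14.7 CPM. Axin2, a direct beta-catenin target, lay at 82.2 and 92.7 against 155 and 147 CPM, a call (adjusted p 0.00715) lost without Het-labelled replicate 1 (0.0503) and with the stress covariate (0.101). Fzd1 was also lost with the stress covariate (0.0541). The list's counts were 4 higher and 5 lower without Het-labelled replicate 1, and 7 higher and 4 lower without SmoM2-labelled replicate 2.

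Of 28 tested BMP and retinoic acid genes, 8 rose and 4 fell (42.9% called beside 33.7% of all tested genes), with a median of 0.08. Nog, a secreted BMP antagonist, rose from 1.87 and 2.89 to 6.34 and 9.36 CPM, 3.32-fold (log2 change 1.73, SE 0.36, adjusted p 0.003998). In the retinoic acid arm, the receptor Rarb rose from 30.2 and 31.8 to 48.98 and 58.8 CPM, whereas the binding protein Crabp1 fell from 9.89 and 14.1 to 1.64 and 2.31 CPM and the retinaldehyde reductase Dhrs3 from 94.9 and 111 to 33.4 and 34.3 CPM. Nog and Dhrs3 kept their calls in each fit without a library and with the stress covariate, and Rarb and Crabp1 lost theirs with that covariate (adjusted p 0.0616 and 0.0877). The count of higher genes was 5 without either Het-labelled library.

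Of 20 tested forkhead factors, 9 rose and 5 fell (70% called beside 33.7% of all tested genes), with a median of 0.33. With GC and length trends removed, 9 were higher and 1 lower. Foxf1, Foxf2 and Foxd1 are given above. The paralogs Foxc1 and Foxc2, both needed in the kidney mesenchyme, differed in direction. Foxc1 lay at 492 and 397 CPM in the Het-labelled and 792 and 844 CPM in the SmoM2-labelled libraries (log2 change 0.88, SE 0.15, adjusted p 0.00132). Foxc2 lay at 239 and 243 CPM and 132 and 162 CPM (log2 change -0.71, SE 0.14, adjusted p 0.00353). The fall of Foxc2 was lost with GC and length trends removed (log2 change -0.22, adjusted p 0.264) and without SmoM2-labelled replicate 1 (adjusted p 0.05001), and both were lost with the stress covariate (0.101 for Foxc1 and 0.256 for Foxc2). Foxn3, a checkpoint-linked repressor, rose from 13.1 and 14.6 to 38.04 and 36.1 CPM and Foxo1, a factor under insulin control, from 41.04 and 36.9 to 124 and 55.9 CPM, calls lost with that covariate (0.0515 and 0.822). The counts were 6 higher and 2 lower without Het-labelled replicate 2, 9 and 2 without SmoM2-labelled replicate 1, and 8 and 3 without Het-labelled replicate 1.

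Of 28 tested genes of cAMP and adenosine signalling, the route to protein kinase A, 5 rose and 6 fell, with a median of 0.16. The share called was 39.3%, near the 33.7% of all tested genes. Adora2a, the adenosine receptor that raises cAMP, lay at 28.3 and 27.9 CPM in the Het-labelled and 0.614 and 1.27 CPM in the SmoM2-labelled libraries, 29.8-fold lower (log2 change -4.90, SE 0.33, adjusted p 5.65e-06). The WT-labelled libraries held 3.08 and 1.85 CPM and the KO-labelled ones 39.4 and 45.9 CPM. Ppp1r1b, a phosphatase inhibitor that protein kinase A switches on, was in no list and is among the leading genes that fell. It lay at 54 and 59.6 CPM and 2.35 and 2.08 CPM, 25.4-fold lower (log2 change -4.67, SE 0.30, adjusted p 5.32e-06). The adenylyl cyclase Adcy2 fell from 22.6 and 21.1 to 7.36 and 8.32 CPM, a call lost with the stress covariate (adjusted p 0.0932). Pkia, an inhibitor of protein kinase A, rose from 14.97 and 16.6 to 43.8 and 43.3 CPM, 2.76-fold (log2 change 1.46, SE 0.17, adjusted p 0.000135). Without Het-labelled replicate 1 and without SmoM2-labelled replicate 1, 2 members were higher, without Het-labelled replicate 2 and without SmoM2-labelled replicate 2, 3, and without Het-labelled replicate 2, 2 were lower.

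Axon guidance genes, which also steer cell contact outside the nervous system, were tested for 34 members, of which 11 rose and 6 fell (50% called beside 33.7% of all tested genes), with a median of 0.28. Slit3, a secreted Robo ligand, lay at 14.97 and 13.9 CPM in the Het-labelled, 19.3 and 30.8 CPM in the WT-labelled and 61.1 and 64.4 CPM in the SmoM2-labelled libraries, 4.33-fold above the first (log2 change 2.12, SE 0.21, adjusted p 7.07e-05) and 2.51-fold above the second (adjusted p 0.03497). Sema3d, a secreted semaphorin, rose from 12.2 and 3.74 to 69.8 and 66.5 CPM. The transmembrane semaphorin Sema6a was low in both the Het- and the WT-labelled libraries, at 10.4 and 9.17 and 8.95 and 8.06 CPM, and higher in the SmoM2-labelled ones at 28.5 and 23 CPM. Its change against the Het-labelled libraries (1.39, SE 0.21, adjusted p 0.000766) was lost with the stress covariate (0.124). Cntn2, a contactin, had 1 and 1 counts in the Het-labelled and 38 and 57 in the SmoM2-labelled libraries, a ratio of 34.5 (95% exact counting interval 9.28 to 289). Lrrc4c, a netrin-G ligand, rose from 0.802 and 0.1698 to 13.4 and 9.36 CPM, 21.4-fold.

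In the other direction, Sema3f fell from 683 and 779 to 304 and 262 CPM, 2.58-fold (log2 change -1.37, SE 0.16, adjusted p 0.000135). Plxna4, a semaphorin receptor, lay at 148 and 137 CPM and 9.1 and 35.1 CPM, with the SmoM2-labelled replicates far apart, a call lost with the stress covariate (0.323). Without single libraries, 6 to 10 members of the list were higher and 2 to 3 lower, with the fewest without SmoM2-labelled replicate 2.

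Of 29 tested matrix and adhesion genes, 6 rose and 7 fell, with a median of 0.18. The share called was 44.8% beside 33.7% of all tested genes. Col9a1, a fibril-associated collagen, rose from 23.9 and 44.2 to 78.5 and 116 CPM (log2 change 1.52, SE 0.30, adjusted p 0.00312) and Fn1, fibronectin, from 92.9 and 119.9 to 169 and 219 CPM. The basement membrane genes Lama5 and Col4a1 fell, from 356 and 325 to 210.5 and 187 CPM and from 1232 and 1248 to 802 and 851 CPM. Col4a1 lost its call with the stress covariate (adjusted p 0.351). Without Het-labelled replicate 1 and without SmoM2-labelled replicate 2, 3 members were higher, and with the stress covariate 1 was lower.

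Of 29 tested cell cycle genes, 4 rose and 4 fell, 27.6% called beside 33.7% of all genes. Ccnd3, a D-type cyclin, fell from 229 and 204 to 117 and 125 CPM (log2 change -0.84, SE 0.12, adjusted p 0.000456). Cdk6, a partner of D-type cyclins, rose from 5.35 and 4.76 to 12.5 and 20.1 CPM, and Cdkn1a, the p21 inhibitor, from 7.35 and 12.4 to 23.01 and 45.4 CPM. Cdkn1a was lost without Het-labelled replicate 1 (adjusted p 0.0518) and Cdk6 with the stress covariate (0.0995). Plk1, a mitotic kinase, fell from 78.9 and 77.96 to 47.96 and 43.9 CPM, a call lost with GC and length trends removed (0.0563) and with the stress covariate (0.251). Without Het-labelled replicate 1, 1 member was higher and 2 were lower. Among 20 glycolysis genes, 4 rose and 5 fell (45% called beside 33.7% of all tested genes), with a median of 0.04. The glucose transporter Slc2a1 fell from 136 and 176 to 59.5 and 60.6 CPM (log2 change -1.38, SE 0.18, adjusted p 0.000288). The hexokinase genes went opposite ways, with Hk1 rising from 64.3 and 67.8 to 156 and 152 CPM (log2 change 1.22, SE 0.13, adjusted p 0.000115) and Hk2 falling from 87.3 and 129 to 36.9 and 59.6 CPM. Slc16a3, the lactate exporter, fell from 87.6 and 155 to 36.2 and 54.2 CPM. Hk2 and Slc16a3 lost their calls with the stress covariate (adjusted p 0.344 and 0.171). Without Het-labelled replicate 1, 2 glycolysis genes were higher and 4 lower, without Het-labelled replicate 2, 3 and 3, without SmoM2-labelled replicate 1, 4 and 3, and without SmoM2-labelled replicate 2, 2 and 3.

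Immediate early genes were mostly lower in the SmoM2-labelled libraries, with 16 of 23 tested lower, 2 higher and a median of -0.86. Over all tested genes, 16.9% were lower and 16.7% higher. The immediate early genes are listed as a check, since handling of cells before lysis can change them. Egr3 lay at 84.3 and 55.4 CPM in the Het-labelled and 8.998 and 9.13 CPM in the SmoM2-labelled libraries, 7.72-fold lower (log2 change -2.95, SE 0.32, adjusted p 0.000108). Fosb lay at 668 and 903 CPM and 164 and 324 CPM, and Junb at 663 and 538 CPM and 184 and 242 CPM. Ier2 fell from 1202 and 1133 to 463 and 594 CPM and Btg2 from 308 and 272 to 78.1 and 102 CPM. The members that rose were Klf6, from 9.36 and 9.34 to 20.04 and 32.4 CPM, and Fosl2, from 20.9 and 14.4 to 39.1 and 46.7 CPM, the latter not called without Het-labelled replicate 2 (adjusted p 0.0504). With GC and length trends removed, 3 were higher and 10 lower, and 9 were lower without SmoM2-labelled replicate 1. The fit with the stress covariate holds these genes in its covariate and so cannot serve to test them.

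In the heat shock list, a second check of handling, 3 of 13 tested rose and 2 fell, 38.5% called and near the 33.7% of all tested genes. Hsph1, a chaperone partner of Hsp70, fell from 117 and 119 to 21.7 and 40.6 CPM and Hspa4l, its relative, rose from 25.3 and 21.4 to 47.4 and 52.9 CPM. The others called were Hsp90ab1 (4140 and 3958 against 5537 and 6113 CPM), Hspb1 (4.01 and 5.26 against 7.46 and 12.5 CPM) and Dnajb1 (log2 change -0.55), and these were not called without Het-labelled replicate 2 (adjusted p 0.0579, 0.0526 and 0.0825) or with the stress covariate (0.107, 0.0873 and 0.41). Hspb1 was also not called without Het-labelled replicate 1 (0.133) and without SmoM2-labelled replicate 2 (0.196), and Dnajb1 without SmoM2-labelled replicate 1 (0.0735).

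Among the 12 leading genes that fell were 3 of antigen presentation by MHC class II, namely Cd74, the invariant chain, and H2-Aa and H2-Eb1, which encode an alpha and a beta chain of the class II molecules. MHC class II presents peptides to helper T cells, is typical of professional antigen-presenting cells, and is switched on in cells by the coactivator Ciita. Ciita is recruited by factors on a set of upstream elements (the W, X, X2 and Y boxes), of which the Y box holds an inverted CCAAT. The start regions of H2-Aa and H2-Eb1 are shown because both genes fell together and both windows hold the Y box core. They run from 250 bases before to 50 bases after the start, on the gene's own strand, from RefSeq on GRCm38.p6, and the capitals mark the Y box core CTGATTGG.
H2-Aa (chr17:34287774-34288073, minus strand): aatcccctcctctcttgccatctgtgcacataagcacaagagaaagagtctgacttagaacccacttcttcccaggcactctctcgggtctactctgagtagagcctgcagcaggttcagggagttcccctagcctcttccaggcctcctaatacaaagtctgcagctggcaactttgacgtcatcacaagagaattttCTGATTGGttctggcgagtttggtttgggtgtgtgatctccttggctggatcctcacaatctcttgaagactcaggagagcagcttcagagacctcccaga
H2-Eb1 (chr17:34305617-34305916, plus strand): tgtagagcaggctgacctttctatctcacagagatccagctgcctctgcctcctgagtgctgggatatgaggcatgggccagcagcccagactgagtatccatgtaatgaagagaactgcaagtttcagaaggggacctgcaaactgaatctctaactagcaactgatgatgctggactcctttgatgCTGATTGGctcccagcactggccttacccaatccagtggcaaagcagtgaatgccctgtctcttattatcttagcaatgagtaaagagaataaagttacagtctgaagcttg
The core begins 51 bases before the start of H2-Aa and 62 bases before that of H2-Eb1. Searched on both strands, it was in 1346 of 32851 windows of this length over all genes, which is 4.1%. Of the 9 class II genes, 6 had a window in the table (7 windows), and 3 of these windows held it, those of H2-Aa, H2-Eb1 and H2-Eb2. H2-Eb2 had at most 3 counts in each of the 4 libraries and was not tested. A match of letters is a description of the window and shows no binding.

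Cd74 lay at 109 and 130.4 CPM in the Het-labelled and 4.703 and 6.703 CPM in the SmoM2-labelled libraries, 21.1-fold lower (log2 change -4.40, SE 0.34, adjusted p 1.57e-05). H2-Eb1 lay at 119 and 125 CPM and 7.77 and 8.21 CPM (log2 change -3.93, SE 0.24, adjusted p 3.95e-06), and H2-Aa at 40.5 and 41.3 CPM and 2.66 and 2.54 CPM (log2 change -3.96, SE 0.35, adjusted p 2.71e-05). In each case the Het-labelled libraries lay close together and far above both SmoM2-labelled ones. The WT-labelled libraries were nearer to the SmoM2-labelled ones, with Cd74 at 19.9 and 7.84 CPM, and the KO-labelled libraries nearer to the Het-labelled ones, with Cd74 at 86.6 and 80.8 CPM. Further class II genes were looked up after these values were seen. Ciita lay at 28.7 and 22.9 CPM and 2.86 and 1.04 CPM, 12.9-fold lower (log2 change -3.69, SE 0.36, adjusted p 4.75e-05), and H2-Ab1, a beta chain gene, at 102 and 122 CPM and 4.91 and 18.6 CPM. The peptide-loading genes H2-DMa, H2-DMb1 and H2-DMb2 had log2 changes of -1.88, -1.60 and -2.98. All 8 class II genes tested were lower, beside 16.9% of all tested genes. Cd74, H2-Aa and H2-Eb1 were picked for the size of their fall, so this count follows in part from that choice. H2-DMb1 and H2-DMb2 lost their calls with the stress covariate (adjusted p 0.217 and 0.0964).

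MHC class I genes, which most cells carry, did not pass the threshold in the main fit. In 3 of 15 alternatives H2-K1 was called lower. These were the fit of only the Het- and SmoM2-labelled libraries, that with every counted gene tested and that with a replicate block. H2-D1 lay at 13.9 and 15.8 against 20.8 and 15.02 CPM, B2m at 20.99 and 24.97 against 19.8 and 17.6 CPM and H2-K1 at 14.3 and 15.5 against 4.19 and 9.82 CPM (adjusted p 0.469, 0.316 and 0.122). Of the markers of immune cells, Ptprc, Tyrobp and Csf1r were low in both groups. Ptprc, the CD45 antigen of white blood cells, had 0 and 1 counts in the Het-labelled and 0 and 0 in the SmoM2-labelled libraries. Tyrobp had 3 and 1 and 2 and 1 counts, and Csf1r, the receptor of macrophages, lay at 2.005 and 1.02 against 1.84 and 1.39 CPM (adjusted p 0.964). The 10 immune genes summed to 116 and 138 CPM in the Het-labelled and 14.6 and 13.3 CPM in the SmoM2-labelled libraries. Cd74 made up nearly all of the sum in the Het-labelled libraries and a far smaller share in the SmoM2-labelled ones. The sum of the other members was low in both groups, and its ranges overlapped. Of the 5 immune genes tested, only Cd74 was called, beside 33.7% of all tested genes.

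**Figure D4:**
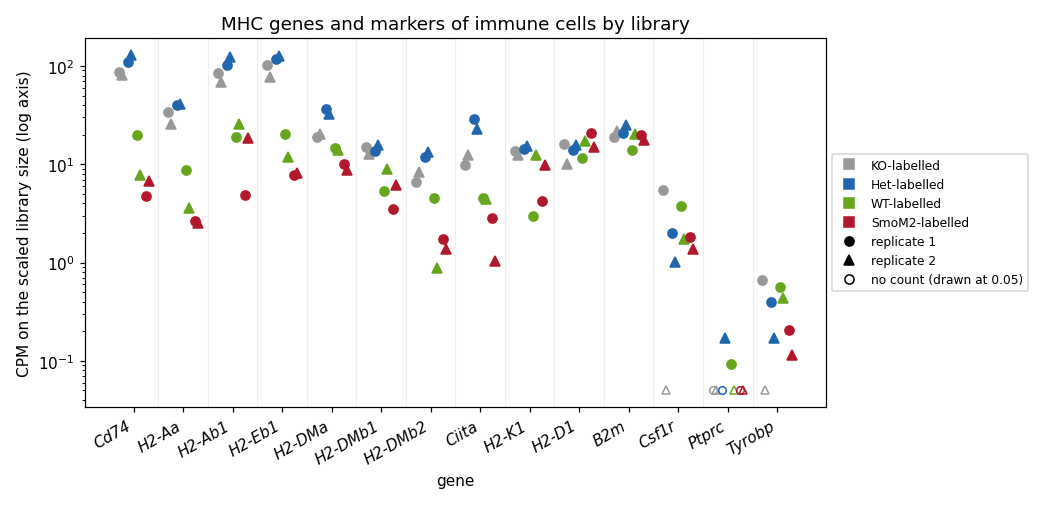
Level in CPM on a log axis of MHC class II genes (Cd74 to Ciita), MHC class I genes (H2-K1, H2-D1 and B2m) and immune cell markers (Csf1r, Ptprc and Tyrobp) in each of the 8 libraries. Points are single libraries, coloured by label, with circles for replicate 1, triangles for replicate 2 and open symbols for no count. Cd74 lies at 109 and 130.4 CPM in the Het-labelled and 4.703 and 6.703 CPM in the SmoM2-labelled libraries, while Csf1r stays at or below 2.005 CPM in these 4 libraries.

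Most of the 12 leading genes that rose were rare in the Het-labelled libraries, among them Hhip and Foxf1, which are given above. Vit, which encodes the matrix protein vitrin, had no count there and 64 and 48 counts in the SmoM2-labelled libraries, at least 27.1-fold higher against a floor of 3 counts over the group. Wfdc1, a secreted protease-inhibitor-like protein, had 3 and 0 against 177 and 186 counts, a ratio of 87.8 (95% exact counting interval 29.8 to 428). Nr0b1, the orphan nuclear receptor Dax1, had 1 and 0 against 39 and 46 counts, and Kcnj15, an inward rectifier potassium channel, 0 and 1 against 57 and 46. Each of these was counted in both SmoM2-labelled libraries and hardly at all in the Het-labelled ones. Pltp, a phospholipid transfer protein, was measurable in both groups, at 4.54 and 6.12 CPM in the Het-labelled, 68.3 and 95.95 CPM in the WT-labelled and 196 and 197 CPM in the SmoM2-labelled libraries, 37.2-fold above the first (log2 change 5.22, SE 0.28, adjusted p 1.79e-06).

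The other genes of this group that are described here were the keratin gene Krt90 (0 and 1 against 37 and 31), the calcium pump gene Atp2b2 (2 and 0 against 93 and 16), the zinc finger gene Zfp33b (0 and 3 against 81 and 81) and Hist1h2al (0 and 0 against 56 and 12). Hist1h2al belongs to a family of near-identical histone genes, and how reads were shared among them is uncertain. Atp2b2 and Hist1h2al differed several-fold between the SmoM2-labelled replicates, and Atp2b2, Zfp33b and Hist1h2al lost their calls with the stress covariate (adjusted p 0.479, 0.145 and 0.1899).

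Among the leading genes that fell and are not yet described, Slc15a2, a peptide transporter, lay at 9.09 and 21.2 CPM in the Het-labelled and 0.102 and 0.578 CPM in those labelled SmoM2. Its WT-labelled replicates were far apart, at 24.98 and 0.762 CPM. Its call (adjusted p 0.01099) was lost without Het-labelled replicate 2 (0.0526), without SmoM2-labelled replicate 1 (0.0664) and with the stress covariate (0.121). Tnfaip2, a gene induced by tumour necrosis factor, lay at 26.9 and 45.4 CPM in the Het-labelled, 9.41 and 11.7 CPM in the WT-labelled and 2.86 and 2.43 CPM in the SmoM2-labelled libraries, 13.4-fold below the first. 2610507I01Rik lay at 15.8 and 14.3 CPM and 1.43 and 0.462 CPM. Gm7534 lay at 6.42 and 7.81 CPM and 0.307 and 0.693 CPM, a call lost with the stress covariate (0.504).

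With the WT-labelled libraries, the difference of each of these 24 genes can be read as a pair of steps. The steps share the WT-labelled libraries with each other and the outer libraries with the comparison that chose the genes, so they are a description. In the step from Het- to WT-labelled, where 25.3% of all tested genes were called, 10 of the 12 that rose and 11 of the 12 that fell were called. Foxf1, Kcnj15 and Slc15a2 were the exceptions (adjusted p 0.0748, 0.0823 and 0.888). The 3403 calls of that step over all genes fell to 1468 without Het-labelled replicate 1, 1401 without Het-labelled replicate 2, 2533 without WT-labelled replicate 1, 2089 without WT-labelled replicate 2 and 73 with the stress covariate. In the step from WT- to SmoM2-labelled, where 0.223% of all tested genes were called (30 genes), 4 of the 12 that rose and 1 of the 12 that fell were called. These were Hhip (4.03 on the log2 scale, adjusted p 8.51e-05), Foxf1 (3.97, 0.00784), Kcnj15 (3.17, 0.0427), Pltp (1.26, 0.0427) and Tnfaip2 (-1.98, 0.0427). The count of 30 was 8 without WT-labelled replicate 1, 81 without WT-labelled replicate 2, 8 without SmoM2-labelled replicate 1 and 10 without SmoM2-labelled replicate 2.

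**Figure D5:**
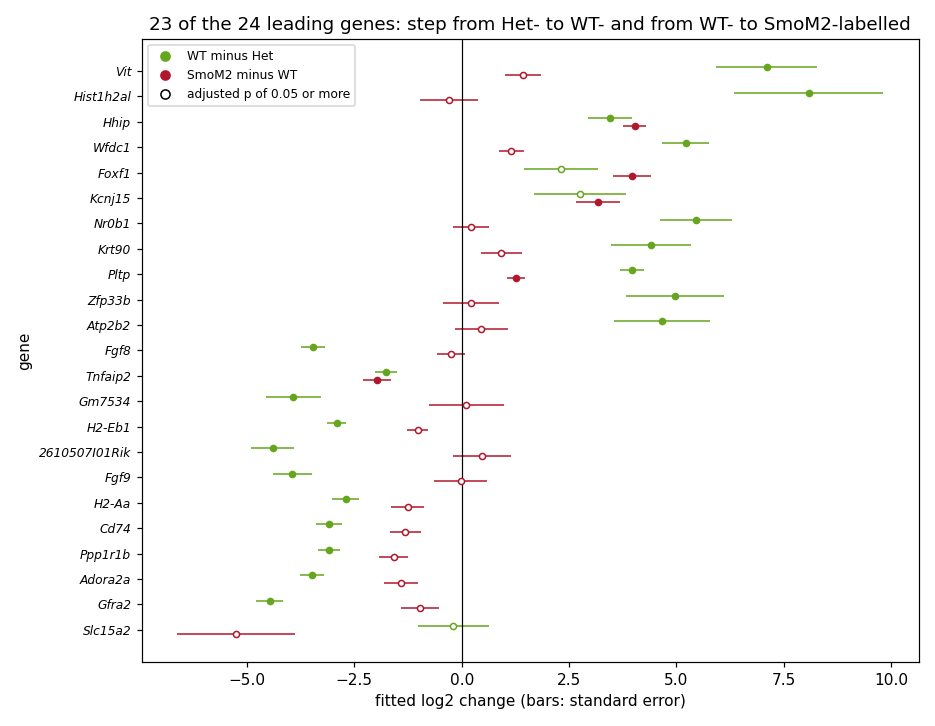
Fitted log2 change (horizontal axis, bars are standard errors) of 23 of the 24 leading genes (vertical axis) from Het- to WT-labelled (green) and from WT- to SmoM2-labelled libraries (red), with filled points for an adjusted p under 0.05. For genes with no or few counts in the Het-labelled libraries the fitted value depends on the default prior count of the fit. Most genes lie far from 0 in green and near 0 in red, and Hhip and Foxf1 have a red step of 4.03 and 3.97.

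The GLI-binding consensus TGGGTGGTC was searched for on both strands of the same RefSeq start windows. It was in 83 of 32851 windows over all genes (0.253%). Of the 12 Hedgehog targets, 6 had a window, and none of these held it. This says only that these letters are not in that stretch of 300 bases.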

How the data were processed

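Polyadenylated RNA of sorted cells was sequenced in 8 libraries, and per the labels replicate pairs form 4 groups. The deposited table gives the authors' raw read counts per gene, a gene length and RPKM values for 24539 symbols, per the file headers. Per the submitters' processing notes, STAR, featureCounts, Subread and the build mm10 were used. Versions, annotation and strand setting are not given in the sources used here, so overlapping antisense genes cannot be told apart. The listed counts make up 81.1% to 83.3% of the totals implied by the deposited RPKM values, which were used for levels per length and an alternative scaling only.

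The main test was that of edgeR 4.0.16 (R 4.3.3). filterByExpr with a minimum count of 10 kept 13459 genes, libraries were scaled by TMM, and a quasi-likelihood model with a mean per group was fitted to all 8 libraries (4 residual degrees of freedom, biological coefficient of variation 13.5%). P-values are two-sided and adjusted by Benjamini-Hochberg over all tested genes. With 2 libraries against 2 an exact permutation test cannot go below 0.333, so none is given. Levels are CPM on the scaled library size. The prior count of 2 was used for log2 CPM only, and fold changes come from the fit at its own default prior count. Genes at no more than 3 counts per library in a group get a counting interval or a bound. Intervals cover counting error only. The fit was tested on simulated data. GC content came from GENCODE M21 transcripts, with a value for 97.9% of tested genes, and 23884 symbols matched. Alternatives were DESeq2 1.42.0, other scalings and filters, a replicate block, GC and length trends removed, a stress covariate and leaving out each library. Figures were drawn with matplotlib 3.10.9.

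Named genes are Smo, members of the lists, and up to 12 genes in each direction with the largest fitted change among those with an adjusted p under 0.05, a mean log2 CPM of 1 or more, no overlap between the groups and no Y-linked or X inactivation role. The lists and this rule were chosen with earlier results of these data known, and no list was tested as a set. Results for some genes counted in these lists are not reported here.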

Additional observations from a re-analysis of the deposited data

How the results depend on the processing

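Against the 4529 calls between SmoM2- and Het-labelled libraries, DESeq2, the fit of these 4 libraries alone, 4 other scalings, 2 other filters and the removal of GC and length trends gave 3978 to 5119. The stress covariate gave 1515, and leaving out a library of the 2 groups gave 2409 to 3236. None of the 116 named genes that were called changed direction in any of 15 alternatives, 67 kept their call in each of them that gave a value, 47 lost it with the stress covariate and 20 without some library. The immediate early genes among the 116 are part of the stress covariate, so a call of theirs kept or lost there is no test. With that covariate the counts of higher and lower list members were 5 and 1 for Hedgehog targets, 2 and 0 for ureteral mesenchyme, 1 and 1 for early nephron, 4 and 2 for Wnt, 3 and 1 for BMP and retinoic acid, 1 and 1 for each of cell cycle, glycolysis and cAMP, 8 and 1 for axon guidance, 4 and 1 for matrix, 3 and 1 for Fox factors and 2 and 1 for heat shock. DESeq2 did not call Ccnd1, Krt8 and Krt18.

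The 30 calls between SmoM2- and WT-labelled libraries became 82 with DESeq2, 8 in a fit of these 4 libraries alone, 16 with library totals, 356 with every counted gene tested, 19 with GC and length trends removed, 8 with the stress covariate and 8 to 81 without single libraries. The 3403 calls between WT- and Het-labelled libraries became 73 with the stress covariate and 1401 to 2533 without single libraries. Beyond fewer samples in fits without a library, the cause was not tested. Replicate numbers were not treated as pairs, since deviations of replicate 1 from the group mean correlated at 0.04 between the Het- and SmoM2-labelled groups, -0.02 between Het- and WT-labelled and 0.39 between WT- and SmoM2-labelled. In both the WT- and the SmoM2-labelled group replicate 1 was male and replicate 2 female. With a replicate block the 3 counts were 4765, 54 and 3685. At 5929770 to 9929956 listed counts in the 4 libraries, genes with a handful of counts have wide intervals, and a count of 0 allows up to 0.307 to 0.510 CPM.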
